A study of Mus musculus with 42 samples.

Results

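The liver transcriptome of APOE*3-Leiden mice that received a Western-type diet (WTD) together with atorvastatin was compared with that of mice kept on chow, to describe which genes still differed from the healthy liver after 32 weeks of treatment. The comparison takes every library that the labels place in these groups, 16 from WTD with atorvastatin and 10 from chow, which is 26 of the 42 libraries of the study. All mice were females carrying the human APOE*3-Leiden transgene, which gives a humanised lipoprotein metabolism, and each library is the liver of 1 mouse. The treated mice were 8 to 14 weeks old at the start, had a run-in of 3 weeks on the WTD, and then received 3.0 mg/kg/day of atorvastatin in the diet, raised to 4.5 mg/kg/day at week 5. Their diet held 15% cocoa butter, 40.5% sucrose and 1% cholesterol, and 0.05% sodium cholate was added from week 22. The 16 mice on WTD alone, whose values are given beside the comparison, had the same diet without the drug. The chow mice had a maintenance diet and no drug, and the sources used here do not give their age. They are numbered in a series of their own (AZ#1 to AZ#10, against Gen#22 to Gen#37 for the treated mice), so that diet, cholate, drug and any difference in origin cannot be told apart in this comparison. The comparisons of both WTD groups with chow use the same 10 chow mice.

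As background, liver cells sense cholesterol through the transcription factor SREBP2, which switches on the enzymes of cholesterol synthesis when sterols are low and is held inactive when they are plentiful. Oxidised sterols activate the nuclear receptor LXR, which induces sterol exporters and, with insulin, the fatty acid synthesis programme of SREBP1c. Atorvastatin is a statin, a class of drugs that inhibit cholesterol synthesis. In steatohepatitis, macrophages of a lipid-associated type gather around fat-laden hepatocytes, and stellate cells turn into matrix-producing myofibroblasts that deposit collagen.

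Between 15908421 and 35410623 read pairs were counted on genes in the 26 libraries, with a median of 20405093.5 on chow and 18180048.5 with atorvastatin. Levels are given as CPM, counts divided by each library's TMM-adjusted size and scaled to a common total, as edgeR does. The hepatocyte marker Alb, which encodes albumin, was high in each library, with 79113 to 121592 CPM on chow (median 91339) and 47555 to 103696 CPM with atorvastatin (median 83832). Genes at 1 to 2 CPM in their own group lacked any count for more than 20% of such genes in 3 chow libraries (AZ#2, AZ#5 and AZ#6) and in 1 treated library (Gen#29), so a missing count of a weak gene says little there. The chow library AZ#1 stood apart from the other chow libraries, with 106 CPM of the imprinted RNA H19, 610 CPM of the muscle troponin Tnnt3 and 1358 CPM of the immunoglobulin chain Ighm. For H19, Tnnt3, Tnni2, Ighm and Lpl, values are therefore given with and without that mouse.

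Of the 15574 genes tested, 3893 (25%) differed between WTD with atorvastatin and chow at an adjusted p under 0.01 in the quasi-likelihood test of edgeR with Benjamini-Hochberg adjusted values, which is what called means in the following. Of these, 2219 (14.2%) were higher and 1674 (10.7%) lower in treated mice. The median log2 fold change over all tested genes was 0.04. Tested against a change of 1.5-fold instead of no change, 720 genes (4.62%) were higher and 164 (1.05%) lower. For 448 genes (2.88%) all 16 treated mice lay above the highest chow mouse, and for 233 (1.5%) all 16 lay below the lowest. For 5842 genes (37.5%) the 95% interval of the fold change lay within 1.5-fold of chow in both directions. WTD alone differed from the same chow mice in 5224 genes (33.5%), with 17.5% higher and 16% lower. WTD with atorvastatin differed from WTD alone in 1106 (7.1%), with 4.84% higher and 2.26% lower. Tested against 1.5-fold, these comparisons gave 1815 genes (11.7%) and 8 genes (0.0514%). In whole liver, fewer cells of a type and less RNA per cell cannot be told apart.

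**Figure D1:**
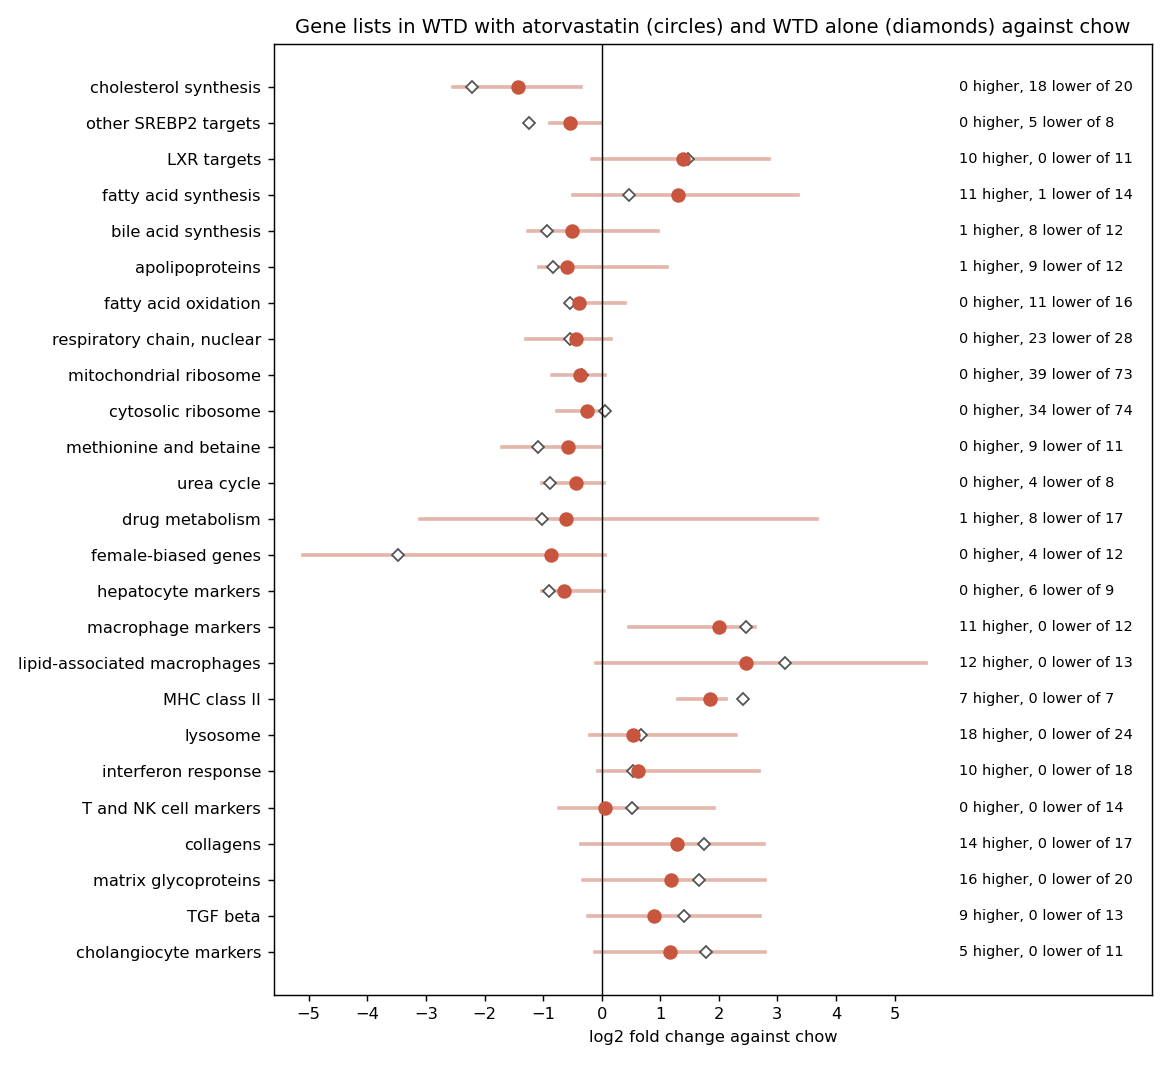
Median log2 fold change of each gene list against chow, in which each row is a list and the points show WTD with atorvastatin and WTD alone. Lipid-associated macrophage genes had the highest plotted median in treated mice among the lists of cell types (2.47), while the median of cholesterol synthesis genes was -1.43.

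The enzymes of cholesterol synthesis remained lower than on chow. Of the 20 enzymes tested, 18 were lower in treated mice, with a median log2 fold change of -1.43, and for 12 of them all 16 treated mice lay below the chow range. On WTD alone all 20 were lower than on chow, with a median of -2.21, and 17 were higher with the drug than without it. Hmgcs1, the HMG-CoA synthase of the pathway, lies at chr13:119690379-119708260 on the plus strand of GRCm38. It was the 1 gene among the 15 cholesterol synthesis genes matched in the RefSeq promoter table whose promoter window, from 250 bases before to 50 after the start site, held the sterol regulatory element TCACNCCAC on either strand, a motif that none of the 5 matched other SREBP2 targets held and that was found in 1.436% of the 27025 genes with a promoter in that table. The 250 bases before its start site on GRCm38.p6, chr13:119690101-119690350 on the plus strand, are shown because SREBP2 acts through this kind of element, with the match in capitals:
Hmgcs1 promoter: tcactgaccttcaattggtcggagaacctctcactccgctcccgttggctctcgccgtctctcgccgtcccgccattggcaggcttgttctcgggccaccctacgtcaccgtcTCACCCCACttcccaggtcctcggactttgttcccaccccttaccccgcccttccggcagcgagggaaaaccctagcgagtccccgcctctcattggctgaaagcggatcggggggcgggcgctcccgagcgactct
The match is a description of the sequence and does not show binding.

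Hmgcs1 measured 824 to 1540.4 CPM on chow (median 995) and 104 to 340.2 CPM with atorvastatin (median 252). Every treated mouse lay below the lowest chow mouse, and the gene was 4.63-fold lower (log2 fold change -2.21, SE 0.15, adjusted p = 1.9e-15). It measured 71.8 to 207 CPM on WTD alone (median 136), and atorvastatin exceeded WTD alone by a log2 fold change of 0.76 (adjusted p = 1.6e-04). Cyp51, the lanosterol demethylase, had 259.7 to 442 CPM on chow (median 369.9) and 41.3 to 108 CPM with atorvastatin (median 78.3). Its groups did not overlap either, and it was 4.64-fold lower (log2 fold change -2.21, SE 0.14, adjusted p = 1.3e-17). Sqle, squalene epoxidase, had 100.5 to 197 CPM on chow (median 146) and 6.96 to 65.7 CPM with atorvastatin (median 38.5), again without overlap and 3.45-fold lower (adjusted p = 2.1e-07).

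Other targets of SREBP2 were in part lower than on chow. Of the 8 tested, 5 were lower in treated mice, with a median of -0.54. Srebf2, which encodes SREBP2 itself, had 90.3 to 129 CPM on chow (median 115), 50.9 to 92.7 CPM with atorvastatin (median 78.1) and 46.6 to 71.1 CPM on WTD alone (median 62.3). In 15 of 16 treated mice it was below the chow range (log2 fold change -0.55, SE 0.08, adjusted p = 9.8e-08), and its log2 fold change on WTD alone was -0.88. Tmem97, a sterol-regulated membrane protein, had 82.8 to 117 CPM on chow (median 104) and 55.8 to 81.9 CPM with atorvastatin (median 69.7) and was lower (log2 fold change -0.56, SE 0.08, adjusted p = 3.0e-08), with 16 of 16 treated mice below the chow range.

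**Figure D2:**
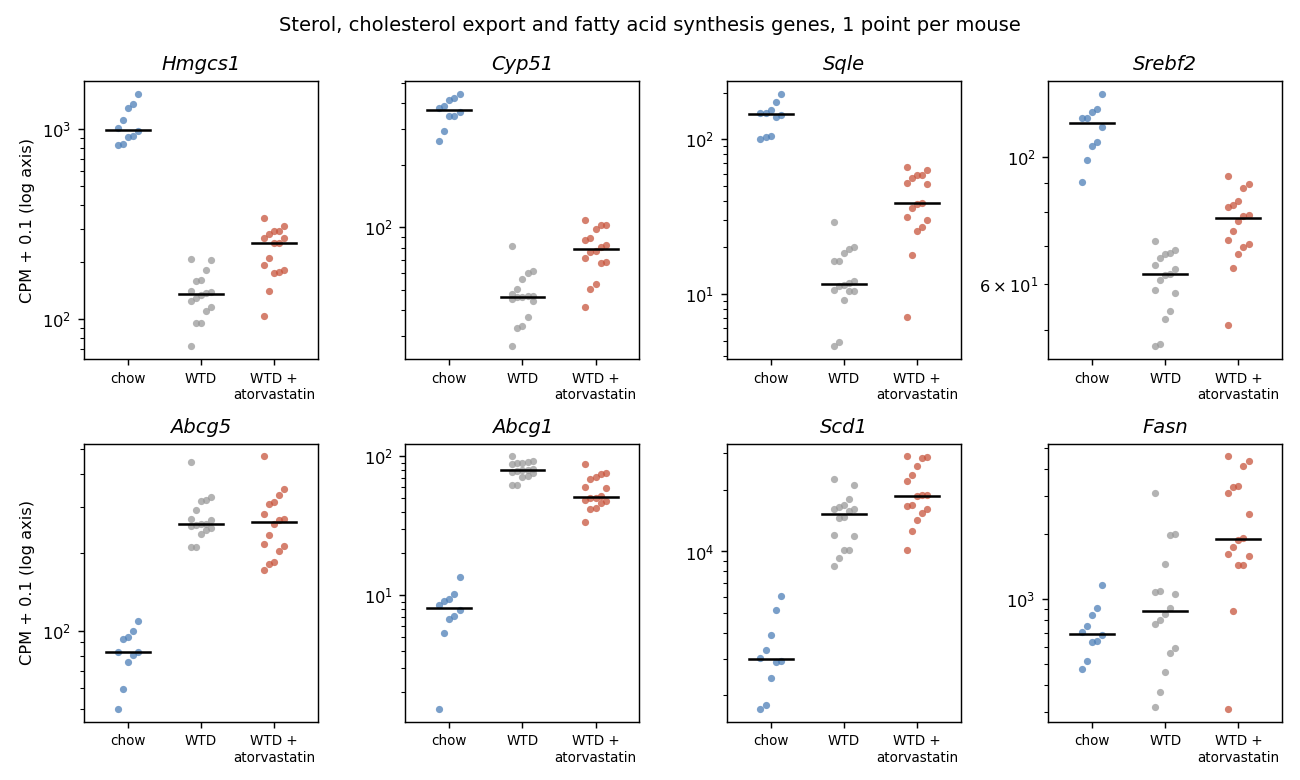
CPM (plus a constant of 0.1, log axis) of 8 genes of sterol and fatty acid metabolism in each mouse on chow, WTD and WTD with atorvastatin, with the median as a black line. Hmgcs1, Cyp51 and Sqle lay below the chow range in all 16 treated mice, and Abcg5, Abcg1 and Scd1 above it, while Srebf2 lay below it in 15 of 16.

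Targets of LXR stayed above chow. Of 11 tested, 10 were higher in treated mice, at a median of 1.38 on the log2 scale, against 1.47 on WTD alone, and between both WTD groups the median was -0.09. For 7 of them all 16 treated mice exceeded the chow range. Abcg5, a partner in the transporter that exports sterols into bile, had 49.7 to 109 CPM on chow (median 82.5) and 171 to 469.8 CPM with atorvastatin (median 263). The groups did not overlap, and it was 3.22-fold higher (log2 fold change 1.69, SE 0.14, adjusted p = 1.8e-13). Its partner Abcg8 was 3.02-fold higher (adjusted p = 2.3e-10), also with all 16 treated mice above the chow range. Abcg1, a cholesterol exporter to HDL that macrophages also use, had 1.42 to 13.5 CPM on chow (median 8.06) and 33.6 to 87.2 CPM with atorvastatin (median 51). It was 7.28-fold higher without overlap (log2 fold change 2.86, SE 0.19, adjusted p = 1.6e-16), beside 11 of 12 macrophage markers that were higher in the same mice, with a mean log2 level over the list of 1.37 to 2.35 in treated and -1.08 to 0.42 in chow mice. Their part in the result was not tested. Mylip, a ubiquitin ligase, was higher by a log2 fold change of 1.38 (adjusted p = 4.6e-14).

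Genes of fatty acid synthesis were higher than on chow, and further from it than on WTD alone. Of 14 tested, 11 were higher and 1 lower in treated mice, with a median of 1.30 against 0.47 on WTD alone, and 10 were higher with the drug than without it. Scd1, which desaturates fatty acids and lies at chr19:44394455-44407879 on the minus strand of GRCm38, had 1709 to 6086 CPM on chow (median 2991) and 10137 to 29037 CPM with atorvastatin (median 18726). All 16 treated mice exceeded the chow range, at 5.94-fold higher (log2 fold change 2.57, SE 0.21, adjusted p = 2.0e-13), and the difference from WTD alone was 0.43 (adjusted p = 0.072). Fasn, fatty acid synthase, had 476 to 1159.5 CPM on chow (median 694) and 311 to 4582 CPM with atorvastatin (median 1897). In 14 treated mice it was above the chow range and in Gen#28 below it, at 311 CPM, and it was 3.25-fold higher (log2 fold change 1.70, SE 0.35, adjusted p = 1.4e-04). Pklr, the liver pyruvate kinase, was 3.6-fold higher (adjusted p = 2.7e-08) with 15 treated mice above the chow range. Gpam, which starts triglyceride synthesis, had 30.5 to 73.4 CPM on chow (median 43.5), 45.8 to 298 CPM with atorvastatin (median 126) and 20.3 to 140.0 CPM on WTD alone (median 60.7). It was 3.21-fold higher than chow (adjusted p = 5.0e-06) and exceeded WTD alone by a log2 fold change of 1.29 (adjusted p = 1.5e-04). Gpam was the 1 gene called higher among 11 of triglyceride assembly and VLDL loading, with 1 lower and a median of -0.06. Of these 11 genes, 18.2% were called, against 25% of all tested genes, and 8 had intervals within 1.5-fold of chow. None of them was called lower without the libraries that missed weak genes. Of the 12 genes of glucose metabolism tested, 6 were higher.

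Bile acid synthesis and apolipoprotein genes were mostly lower. Of 12 genes of bile acid synthesis, 8 were lower and 1 was higher, with a median of -0.50 (-0.93 on WTD alone). Cyp8b1, which makes cholic acid, had 195 to 473 CPM on chow (median 302) and 13.4 to 299 CPM with atorvastatin (median 121). It was below the chow range in 13 of 16 treated mice (log2 fold change -1.25, SE 0.30, adjusted p = 9.6e-04). Cyp27a1, the sterol 27-hydroxylase, and Baat, which conjugates bile acids, were lower in all 16 treated mice than in any chow mouse, with log2 fold changes of -0.60 and -0.69 (adjusted p = 8.7e-07 and 1.5e-10). Cyp7a1, the rate-limiting enzyme of the classical pathway, had 55.8 to 235 CPM on chow (median 149) and 28.7 to 176 CPM with atorvastatin (median 84.9). The ranges overlapped, and its call (log2 fold change -0.82, adjusted p = 0.0093) did not hold in 19 of 26 fits, each without another mouse. Since cholate in the diet was given to the treated mice and not to chow mice, its part in these values cannot be told apart. Among 15 genes of bile acid transport, 2 were higher and 4 lower. Abcb11, the bile salt export pump, had 789.9 to 1039 CPM on chow (median 881) and 420.0 to 834 CPM with atorvastatin (median 696), and it was lower (log2 fold change -0.46, SE 0.09, adjusted p = 7.7e-05). Slc10a1, the bile salt importer, did not pass the test (log2 fold change -0.51, adjusted p = 0.075).

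Of 12 apolipoprotein genes, 9 were lower and 1 was higher than on chow. Apoa2, the second protein of HDL, had 4037 to 6591 CPM on chow (median 5926) and 1379 to 4222 CPM with atorvastatin (median 2631). It was 2.09-fold lower (log2 fold change -1.06, SE 0.12, adjusted p = 8.2e-10), with 15 of 16 treated mice below the chow range. Apoc3, which slows the clearance of triglyceride-rich particles, was 1.97-fold lower without overlap (adjusted p = 2.2e-09). The gene that rose was Apoa4, at 2.16-fold higher (log2 fold change 1.11, SE 0.18, adjusted p = 3.3e-06), with 13 of 16 treated mice above the chow range.

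Many genes of mitochondrial energy metabolism were lower. In fatty acid oxidation 11 of 16 genes were lower (median -0.39), in the nuclear-encoded respiratory chain 23 of 28 (median -0.44) and in the mitochondrial ribosome 39 of 73 (median -0.38). Most of these falls were small. Tested against 1.5-fold, 0, 1 and 0 genes of these lists passed, and 8, 14 and 35 had intervals within 1.5-fold of chow. Of 12 genes of the respiratory chain encoded in mitochondria, 4 were lower and 1 higher (median -0.24). Among them mt-Atp6, a subunit of ATP synthase, had 29.1 to 42.8 CPM on chow (median 33.8) and 10.2 to 22.8 CPM with atorvastatin (median 12.4), without overlap (log2 fold change -1.35, SE 0.15, adjusted p = 3.1e-10). mt-Co3, a subunit of cytochrome c oxidase, had 49.9 to 68.4 CPM on chow (median 56.4) and 15.3 to 43.4 CPM with atorvastatin (median 21.3), also without overlap (log2 fold change -1.25, SE 0.14, adjusted p = 1.0e-09), and was lower than on WTD alone (-0.58, adjusted p = 0.0014). Mitochondrial genes have similar copies in the nuclear genome, and since reads that aligned to more than 1 place were not counted, their values are uncertain. Acadm, which oxidises medium-chain fatty acids, had 367 to 515 CPM on chow (median 393) and 223 to 344 CPM with atorvastatin (median 288), without overlap (log2 fold change -0.54, SE 0.07, adjusted p = 7.3e-08). Cox5b, a subunit of cytochrome c oxidase, had 119 to 181 CPM on chow (median 160.4) and 59.8 to 108 CPM with atorvastatin (median 89.1). All 16 treated mice lay below the chow range (log2 fold change -0.81, SE 0.09, adjusted p = 6.4e-11), and the difference from WTD alone was -0.05 (adjusted p = 0.76). Mrpl15, a protein of the mitochondrial ribosome, was 1.76-fold lower without overlap (adjusted p = 6.1e-10), with a difference from WTD alone of 0.14 (adjusted p = 0.34). Cpt1a, which admits fatty acids to mitochondria, did not pass the test (log2 fold change 0.39, adjusted p = 0.016), but it did by DESeq2 and with at least 10 counts in every mouse (lowest adjusted p over the alternatives 0.007). Cyp4a14, a fatty acid hydroxylase induced by PPARα, was 3.45-fold lower (log2 fold change -1.79, SE 0.25, adjusted p = 3.3e-07), with 14 of 16 treated mice below the chow range. Of 9 hepatocyte markers 6 were also lower in these mice, with a mean log2 level over the list of -1.07 to -0.22 in treated and -0.18 to 0.25 in chow mice, and their part in these falls was not tested.

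Genes of the cytosolic ribosome differed between the WTD groups. Of 74 genes tested, 34 were lower in treated mice (median -0.26), while on WTD alone 7 were higher and 3 lower (median 0.06). Tested directly, 38 were lower with atorvastatin than on WTD alone. For 53 of the 74 the interval against chow still lay within 1.5-fold, and the number lower than chow was 20 without the chow mouse AZ#6 and 22 without the libraries that missed weak genes. Rpl11, a protein of the large subunit, had 211 to 364 CPM on chow (median 292) and 136 to 251 CPM with atorvastatin (median 193), with 11 of 16 treated mice below the chow range (log2 fold change -0.55, SE 0.10, adjusted p = 9.3e-06). Ribosomal protein genes have many near-identical pseudogenes, and reads that aligned to more than 1 place were not counted, so that single values are uncertain.

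**Figure D3:**
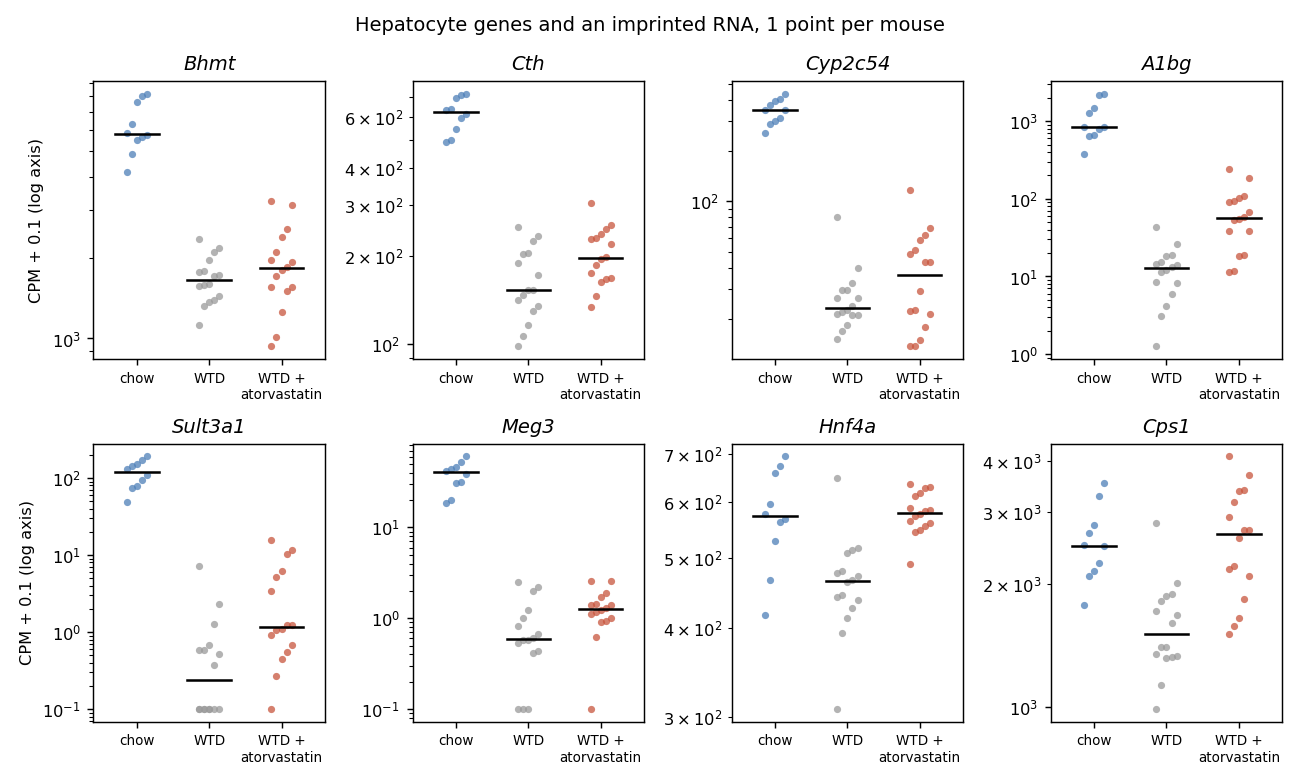
CPM (plus a constant of 0.1, log axis) of 8 genes of hepatocyte metabolism, sex-biased expression, imprinting and identity in each mouse of the 3 groups, with the median as a black line. Bhmt, Cth, Cyp2c54, A1bg, Sult3a1 and Meg3 lay below the chow range in all 16 treated mice, while Hnf4a and Cps1 overlapped with chow.

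Some hepatocyte genes stayed low and others lay near chow. The hepatocyte markers had a median log2 fold change of -0.65. Rbp4, the retinol carrier, was 1.67-fold lower without overlap (adjusted p = 1.8e-09), and Alb did not pass the test (log2 fold change -0.28, adjusted p = 0.039). Hnf4a, the transcription factor that maintains hepatocyte identity, had 417 to 694 CPM on chow (median 572) and 491 to 634 CPM with atorvastatin (median 579). Its groups overlapped, and its interval (-0.14 to 0.17) lay within 1.5-fold of chow. Cps1, which starts the urea cycle, also had an interval within 1.5-fold of chow (-0.27 to 0.34), although it was lower on WTD alone (-0.67). Asl, a later enzyme of that cycle, stayed 2.03-fold lower (log2 fold change -1.02, SE 0.13, adjusted p = 7.1e-09), with 13 of 16 treated mice below the chow range. In all, 4 of 8 urea cycle genes were lower, or 7 by limma-voom.

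Methionine and one-carbon metabolism was among the pathways that stayed low, with 9 of 11 genes lower (median -0.58, against -1.09 on WTD alone). Bhmt, which remethylates homocysteine with betaine, had 4172 to 8178 CPM on chow (median 5802) and 934 to 3255 CPM with atorvastatin (median 1823). The groups did not overlap, and it was 3.24-fold lower (log2 fold change -1.70, SE 0.15, adjusted p = 1.0e-12), with a difference from WTD alone of 0.18 (adjusted p = 0.45). Cth, which makes cysteine, had 489.8 to 719 CPM on chow (median 622) and 134 to 303 CPM with atorvastatin (median 197). It was 3.01-fold lower, also without overlap (log2 fold change -1.59, SE 0.13, adjusted p = 2.5e-14). Mat1a, which makes S-adenosylmethionine, was lower by a smaller amount (log2 fold change -0.41, adjusted p = 0.0014).

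Of 17 genes of xenobiotic metabolism, 8 were lower and 1 was higher. Cyp2c54 had 255 to 436 CPM on chow (median 349) and 13.6 to 117 CPM with atorvastatin (median 36.3). It was 8.56-fold lower without overlap (log2 fold change -3.10, SE 0.29, adjusted p = 1.9e-11), but the Cyp2c genes are similar in sequence and their counts are uncertain. Cyp2b10, a classical target of the receptor CAR, had 10.1 to 40.3 CPM on chow (median 22.6) and 0.259 to 10.2 CPM with atorvastatin (median 2.52), and it was lower in 15 of 16 treated mice than in any chow mouse (log2 fold change -2.77, SE 0.59, adjusted p = 2.6e-04). Cyp3a11, a major drug-metabolising enzyme, was 1.68-fold lower (adjusted p = 5.9e-09). The gene that rose was Sult1e1, an oestrogen sulfotransferase, with 0 to 6.08 CPM on chow (median 0.477) and 1.94 to 46.6 CPM with atorvastatin (median 21.8). In 15 of 16 treated mice it exceeded the chow range (log2 fold change 3.67, SE 0.57, adjusted p = 1.6e-06).

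Genes that are normally higher in female liver lay between WTD alone and chow. Of 12 tested, 4 were lower than on chow in treated mice (median -0.87), against all 12 on WTD alone (median -3.48), and 8 were higher with the drug than without it. A1bg, which encodes a plasma glycoprotein, had 376 to 2265 CPM on chow (median 844), 11.3 to 244 CPM with atorvastatin (median 56.9) and 1.16 to 43.1 CPM on WTD alone (median 12.7). It stayed 15.1-fold lower than on chow without overlap (log2 fold change -3.92, SE 0.45, adjusted p = 4.6e-09), although it exceeded WTD alone by a log2 fold change of 2.47 (adjusted p = 7.4e-05). Sult3a1, a sulfotransferase with a close paralog, had 49.4 to 191 CPM on chow (median 121) and 0 to 15.4 CPM with atorvastatin (median 1.06). All 16 treated mice were below the chow range (log2 fold change -5.09, SE 0.66, adjusted p = 6.4e-08), and the difference from WTD alone was 2.09 (adjusted p = 0.032). Igf1, the liver hormone under growth hormone control, was 1.57-fold lower (log2 fold change -0.65, SE 0.08, adjusted p = 1.8e-09), with 15 of 16 treated mice below the chow range.

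Maternally expressed imprinted RNAs of 1 locus were among the largest falls. Meg3, at chr12:109541001-109571726 on the plus strand of GRCm38, had 18.7 to 60.4 CPM on chow (median 40.4) and 0 to 2.48 CPM with atorvastatin (median 1.17). Rian, from the same locus, had 3.11 to 23.6 CPM on chow (median 13) and 0 to 0.851 CPM with atorvastatin (median 0.27). Both were below the chow range in all 16 treated mice, with log2 fold changes of -4.96 (adjusted p = 2.1e-12) and -5.43 (adjusted p = 4.0e-09), and their differences from WTD alone were 0.67 (adjusted p = 0.32) and 0.64 (adjusted p = 0.59). H19, an imprinted RNA of another locus that is high in fetal liver, had 25 to 163 CPM with atorvastatin, while 9 chow mice had at most 1.85 CPM and AZ#1 had 106. All 16 treated mice were above those 9, and its log2 fold change was 2.91 with AZ#1 and 7.28 without it (adjusted p = 0.0015 and 6.5e-16). With AZ#1 and only the 2 groups fitted H19 did not pass (adjusted p = 0.014). Enho, which encodes the hepatokine adropin, had 10.3 to 69.5 CPM on chow (median 31.1) and 0.0817 to 8.15 CPM with atorvastatin (median 3.54), and it was 9.07-fold lower without overlap (log2 fold change -3.18, SE 0.37, adjusted p = 3.4e-09).

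A set of genes that were called on WTD alone had intervals within 1.5-fold of chow in treated mice. The 8 with the largest difference on WTD alone were Aspg, Slc6a12, Gldc, Uroc1, Cyp1a2, Paox, Ankrd33b and Ugt3a2. They were chosen for being far from chow on WTD alone and near it in treated mice. A difference between the WTD groups therefore follows from the choice, and it is given as a size only. Cyp1a2, which metabolises caffeine, had 499 to 768 CPM on chow (median 669), 353 to 763 CPM with atorvastatin (median 511) and 183 to 589 CPM on WTD alone (median 302). The treated and chow ranges overlapped, with an interval of -0.50 to 0.03 on the log2 scale, and treated mice exceeded WTD alone by 0.78. Gldc, the glycine decarboxylase, had 142 to 242 CPM on chow (median 199), 104 to 257 CPM with atorvastatin (median 158) and 54.4 to 169 CPM on WTD alone (median 93.7), with an interval of -0.56 to 0.01. Uroc1, which degrades histidine, had an interval of -0.52 to -0.03 against chow and was higher than on WTD alone by 0.78. Ugt3a2, a glycosyltransferase, lay within 1.5-fold of chow but was still called lower (log2 fold change -0.37, adjusted p = 0.002).

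Macrophage genes remained far above chow. Of 13 markers of lipid-associated macrophages, 12 were higher, with a median log2 fold change of 2.47, and for 9 of them the groups did not overlap. On WTD alone the median was 3.13, and 9 were lower with atorvastatin than on WTD alone. Gpnmb, a lysosomal glycoprotein at chr6:49036546-49070929 on the plus strand of GRCm38, had 1.64 to 8.64 CPM on chow (median 5.8), 109.9 to 447 CPM with atorvastatin (median 211) and 172 to 612 CPM on WTD alone (median 463). The lowest treated mouse was above the highest chow mouse, at 46.4-fold higher for the group (log2 fold change 5.53, SE 0.32, adjusted p = 3.3e-17), and treated mice were lower than WTD alone (log2 fold change -0.86, adjusted p = 0.0037). Trem2, a lipid-sensing receptor, had 2.0 to 9.14 CPM on chow (median 4.55) and 20.2 to 51.2 CPM with atorvastatin (median 36.1). It was 7.29-fold higher without overlap (log2 fold change 2.87, SE 0.23, adjusted p = 2.3e-13). Mmp12, the macrophage elastase, had 1.91 to 13.2 CPM on chow (median 5.71) and 41.1 to 150.4 CPM with atorvastatin (median 84), and it was 13.2-fold higher without overlap (log2 fold change 3.72, SE 0.31, adjusted p = 7.6e-13). Itgax, an integrin of myeloid cells, and Spp1, which encodes osteopontin, were 6.52-fold higher and 3.21-fold higher (adjusted p = 2.5e-12 and 3.7e-09). Lpl, lipoprotein lipase, had 25.2 to 171 CPM on chow (median 36.5) and 204 to 519 CPM with atorvastatin (median 279), and its log2 fold change was 2.68, or 3.14 without AZ#1.

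Of 12 general macrophage markers, 11 were higher (median 2.0) and 6 were lower than on WTD alone. Csf1r, the receptor of macrophage colony stimulating factor, had 45.9 to 61.9 CPM on chow (median 52.3) and 131 to 214 CPM with atorvastatin (median 159). It was 3.07-fold higher without overlap (log2 fold change 1.62, SE 0.09, adjusted p = 2.0e-20), and its difference from WTD alone was -0.12 (adjusted p = 0.36). Cd68 was 3.98-fold higher and Mpeg1, a pore-forming protein, 4.35-fold higher, both without overlap (adjusted p = 1.9e-17 and 8.7e-24). The markers of resident Kupffer cells did not move together, with 4 of 8 higher and 2 lower. The lower ones, Cd163 and Fcna, are named after their values were seen. Cd163, a scavenger receptor for haemoglobin, had 0.455 to 19.8 CPM on chow (median 9.45) and 0 to 1.7 CPM with atorvastatin (median 0), with 12 of 16 treated mice below the chow range (log2 fold change -4.98, SE 0.91, adjusted p = 2.1e-05). Fcna, the lectin ficolin A, had 46.7 to 111 CPM on chow (median 73.9) and 14.7 to 64.9 CPM with atorvastatin (median 40.5), with 10 of 16 below the chow range (log2 fold change -0.94, SE 0.18, adjusted p = 6.2e-05). Cd5l, an apoptosis inhibitor of macrophages, had 87 to 139 CPM on chow (median 115) and 609 to 975 CPM with atorvastatin (median 736), and it was 6.62-fold higher without overlap (log2 fold change 2.73, SE 0.11, adjusted p = 9.3e-27). Clec4f, a lectin of Kupffer cells, was higher than on chow (log2 fold change 0.87, SE 0.18, adjusted p = 1.9e-04) and higher than on WTD alone (0.62, adjusted p = 0.0047). Timd4, a marker of long-resident Kupffer cells, had 2.12 to 15.8 CPM on chow (median 7.22) and 3.68 to 22.4 CPM with atorvastatin (median 9.75) and did not pass the test (adjusted p = 0.72).

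**Figure D4:**
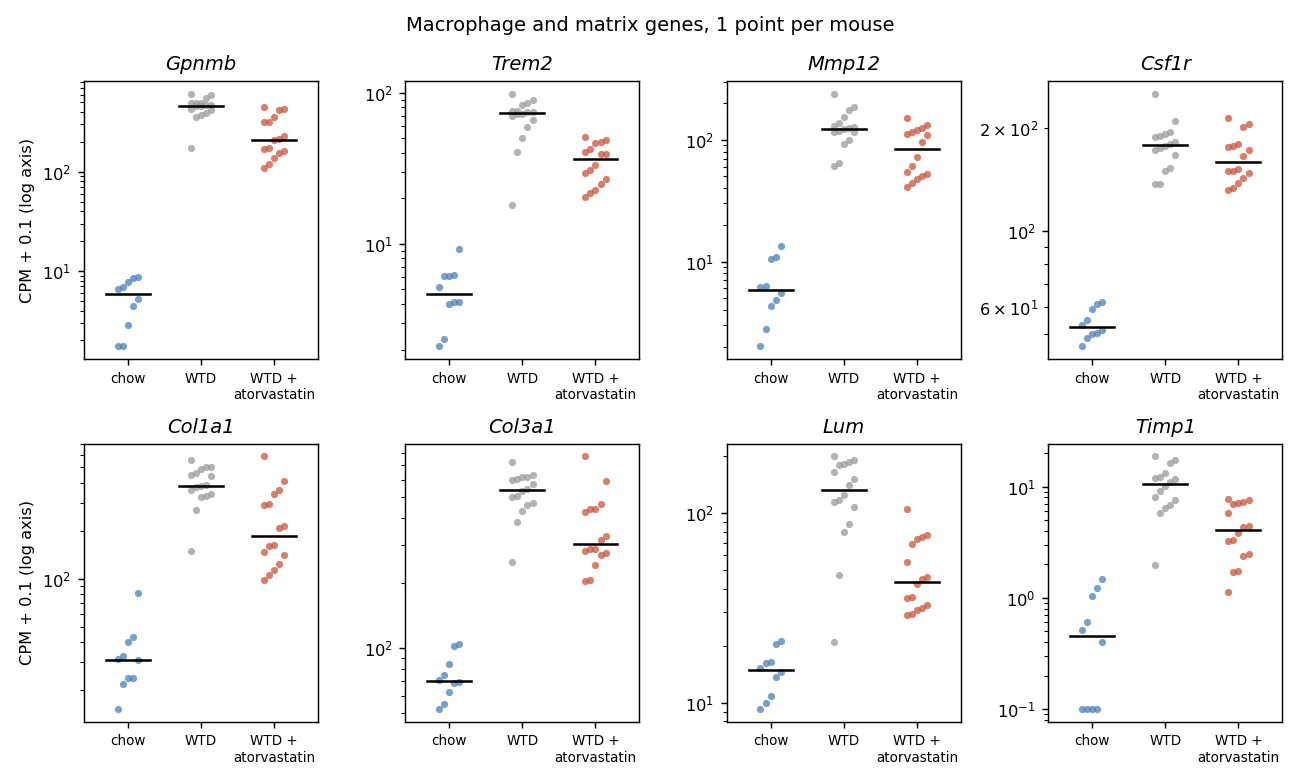
CPM (plus a constant of 0.1, log axis) of 4 macrophage and 4 matrix genes in each mouse of the 3 groups, with the median as a black line. All 16 treated mice lay above the chow range for the plotted genes except Timp1, where 15 did.

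Other immune genes were higher to differing degrees. Of 17 genes of the inflammasome, Toll-like receptors and NF-κB, 10 were higher (median 0.76), and 1 was lower than on WTD alone. With at least 10 counts in every mouse 5 of 11 were higher. Myd88, a further member of this list, had no count in any library and was not tested. The same was true of Cox4i1 and Rpl13, core genes of the respiratory chain and the cytosolic ribosome. A zero in these counts therefore does not show that Myd88 was not expressed. Nlrp3, the sensor of the inflammasome, had 0 to 3.84 CPM on chow (median 2.07) and 1.91 to 8.53 CPM with atorvastatin (median 5.79), with 15 of 16 treated mice above the chow range (log2 fold change 1.62, SE 0.40, adjusted p = 0.0011). Casp1, the protease it activates, was 2.32-fold higher (adjusted p = 3.1e-05). Il1b, the cytokine that the protease matures, had 1.12 to 8.07 CPM on chow (median 4.04) and 3.33 to 17.3 CPM with atorvastatin (median 5.73) and did not pass the test (adjusted p = 0.21). All 7 genes of antigen presentation by MHC class II were higher (median 1.85). Of them Cd74, the invariant chain, had 74.8 to 159.7 CPM on chow (median 90.9) and 283 to 562 CPM with atorvastatin (median 377) and was 4.0-fold higher without overlap (log2 fold change 2.0, SE 0.13, adjusted p = 1.7e-17). Among 18 chemokines, 6 were higher and 1 lower. The numbers were 8 and 3 by limma-voom and 10 and 2 without the libraries that missed weak genes, and with at least 10 counts in every mouse 1 of 6 was higher. Ccl2, which recruits monocytes, had 0.298 to 6.89 CPM on chow (median 2.47) and 4.8 to 16.1 CPM with atorvastatin (median 9.96), with 9 of 16 treated mice above the chow range (log2 fold change 1.82, SE 0.28, adjusted p = 6.4e-07). Ccl6, a chemokine of myeloid cells, was 8.93-fold higher without overlap (adjusted p = 7.5e-13).

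Few lymphocyte genes passed the test. None of 14 markers of T and NK cells was called by edgeR or by DESeq2, and none had an unadjusted p under 0.05 in edgeR, with a median of 0.06. By limma-voom with quality weights 1 was called, and without AZ#1 edgeR called 1. Cd3e, a chain of the T cell receptor complex, had 0 to 3.44 CPM on chow (median 0.927) and 0.477 to 3.06 CPM with atorvastatin (median 1.65), with no count in the chow libraries AZ#2 and AZ#6, and the interval of its log2 fold change was -0.54 to 1.82. Of 8 markers of B and plasma cells 2 were called, a share of 25% that equals the 25% over all tested genes. Cd22 was higher (log2 fold change 1.01, SE 0.19, adjusted p = 2.6e-05). Ighm had a log2 fold change of -2.0, which rested on AZ#1 and was 0.90 without it. Of 6 neutrophil markers, 2 were higher (33.3% called, near the 25% of all tested genes). This was 4 by DESeq2 and 1 without the libraries that missed weak genes or with only the 2 groups fitted. Mpo, Elane, Ly6g, Retnlg and Camp, also listed as neutrophil markers, had too few counts to be tested. Ngp, a granule protein, had no count in any chow library and a count in 6 of 16 treated mice (adjusted p = 0.0041), and it did not pass by limma-voom (adjusted p = 0.17) or without the libraries that missed weak genes (adjusted p = 0.016). Csf3r, the receptor of granulocyte colony stimulating factor, differed by 0.97 on the log2 scale (adjusted p = 5.5e-05), and by 1.26 without the chow mouse AZ#2, which had the highest chow level. Of 18 interferon-induced genes, 10 were higher (median 0.61). Oasl2, an antiviral protein, was 2.92-fold higher (adjusted p = 4.8e-13), while Isg15, a ubiquitin-like protein, had an interval within 1.5-fold of chow (-0.10 to 0.53).

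Fibrillar collagens and other matrix genes remained above chow. Of 17 collagen genes, 14 were higher, with a median of 1.29, and for 10 of them the groups did not overlap. On WTD alone the median was 1.75, and between the WTD groups 1 collagen gene was higher and 3 were lower with atorvastatin. Col1a1, the main chain of type I collagen, at chr11:94936224-94953042 on the plus strand of GRCm38, had 15.1 to 80.9 CPM on chow (median 30.9), 98.1 to 585 CPM with atorvastatin (median 184) and 149 to 556 CPM on WTD alone (median 384). Every treated mouse exceeded the chow range, at 6.85-fold higher for the group (log2 fold change 2.78, SE 0.29, adjusted p = 6.0e-10), and the difference from WTD alone (-0.75, adjusted p = 0.021) did not pass the threshold. Col1a2, its partner chain, was 6.33-fold higher than chow without overlap (adjusted p = 1.0e-12) and was lower than on WTD alone (-0.77, adjusted p = 0.0018). Col3a1, the type III chain, had 51.8 to 104 CPM on chow (median 70.1) and 204 to 771 CPM with atorvastatin (median 301). It was 4.91-fold higher without overlap (log2 fold change 2.30, SE 0.19, adjusted p = 4.9e-13).

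Of 20 genes of proteoglycans and matrix glycoproteins, 16 were higher (median 1.19), and 8 were lower than on WTD alone. Lum, lumican, had 9.2 to 21.2 CPM on chow (median 14.9), 28.9 to 105 CPM with atorvastatin (median 43.5) and 21 to 199 CPM on WTD alone (median 132). It was 3.44-fold higher than chow without overlap (log2 fold change 1.78, SE 0.27, adjusted p = 1.4e-06) and lower than on WTD alone (-1.36, adjusted p = 6.0e-05). Among 20 genes that process or degrade matrix, 11 were higher and 2 lower. Timp1, the inhibitor of metalloproteinases, had 0 to 1.37 CPM on chow (median 0.354) and 1.02 to 7.66 CPM with atorvastatin (median 3.96), with 15 of 16 treated mice above the chow range (log2 fold change 3.20, SE 0.49, adjusted p = 5.9e-07). Loxl1, which cross-links elastin, was 2.72-fold higher (adjusted p = 3.4e-05). Of 13 genes of the TGFβ axis, 9 were higher, among them Tgfb1, with 9.13 to 25.5 CPM on chow (median 13.9) and 21 to 47 CPM with atorvastatin (median 35). In 14 of 16 treated mice Tgfb1 exceeded the chow range (log2 fold change 1.24, SE 0.14, adjusted p = 3.6e-10).

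Markers of stellate cells were higher for 7 of 12 genes (median 0.59). Pdgfrb, the receptor through which stellate cells divide, had 4.15 to 41.9 CPM on chow (median 21.2) and 37.9 to 70.9 CPM with atorvastatin (median 51.5), with 15 of 16 treated mice above the chow range (log2 fold change 1.25, SE 0.17, adjusted p = 1.3e-07). Acta2, the smooth muscle actin of myofibroblasts, had 3.84 to 44.1 CPM on chow (median 9.4) and 3.93 to 13.3 CPM with atorvastatin (median 8.67) and did not pass the test (log2 fold change -0.35, adjusted p = 0.34), and without AZ#1, the highest chow mouse, the sign turned (log2 fold change 0.18, adjusted p = 0.60). Of 11 markers of bile duct cells, 5 were higher (median 1.17), or 8 by DESeq2. Epcam, an adhesion molecule of these cells, had 2.45 to 9.86 CPM on chow (median 5.68) and 10.2 to 28.4 CPM with atorvastatin (median 15.8) and was 2.96-fold higher without overlap (log2 fold change 1.56, SE 0.22, adjusted p = 8.9e-08). Of 13 markers of sinusoidal or of other vascular endothelium, taken as 1 list, 4 were higher and 1 lower. In each of the fits without Gen#34, AZ#4, AZ#5 or AZ#7 this was 2 higher and 1 lower. Clec4g, a lectin of sinusoidal endothelium, was lower in all 16 treated mice than in any chow mouse (log2 fold change -0.62, SE 0.11, adjusted p = 1.3e-05). Cd34, a marker of vascular rather than sinusoidal endothelium, was 2.95-fold higher (adjusted p = 1.8e-06). Stab2, a scavenger receptor, had an interval within 1.5-fold of chow (-0.16 to 0.21).

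Lysosomal genes were higher for 18 of 24 tested (median 0.54), with 11 above the chow range in all 16 treated mice. Ctss, a cathepsin of antigen-presenting cells, had 36.2 to 67.7 CPM on chow (median 48.1) and 157 to 338 CPM with atorvastatin (median 216), and it was 4.88-fold higher without overlap (log2 fold change 2.29, SE 0.14, adjusted p = 2.2e-18). The macrophage markers were higher in the same mice, as given above, and their part in this result was not tested. Of 23 acute phase genes, 7 were higher and 7 lower. Saa1, serum amyloid A with near-identical paralogs, had 30.4 to 217 CPM on chow (median 48.8) and 76.1 to 303 CPM with atorvastatin (median 122). It differed by 0.93 on the log2 scale (adjusted p = 0.0026), or by 1.34 without the chow mouse AZ#5, which had the highest chow level. With only the 2 groups fitted Saa1 did not pass (adjusted p = 0.014). Il1rn, the antagonist of the interleukin 1 receptor, was 4.68-fold higher without overlap (adjusted p = 2.6e-08), and Hp, haptoglobin, had an interval within 1.5-fold of chow (0.04 to 0.41). Of 33 genes of complement and coagulation, 4 were higher and 11 lower. C1qb, which macrophages make, rose (log2 fold change 1.71, SE 0.12, adjusted p = 7.6e-16), and Mbl1, a lectin that hepatocytes make, fell (log2 fold change -1.0, SE 0.08, adjusted p = 1.9e-14), both without overlap. Hmox1, the haem oxygenase of the antioxidant response, had 14.7 to 50.1 CPM on chow (median 25.3) and at least 58.3 CPM with atorvastatin (median 72.2) and was 2.62-fold higher without overlap (log2 fold change 1.39, SE 0.17, adjusted p = 8.3e-09), and 6 of 10 genes of that response were higher. Among 20 cell cycle genes, 4 were higher and 1 lower, a share of 25% called that equals the 25% over all tested genes. Ccnd1, cyclin D1, had 58.3 to 153 CPM on chow (median 91.3), 199.5 to 351 CPM with atorvastatin (median 250.2) and 114 to 252 CPM on WTD alone (median 178) and was higher than on chow (log2 fold change 1.37, SE 0.13, adjusted p = 2.1e-12) and than on WTD alone (0.52, adjusted p = 4.8e-04), while Mki67, a marker of dividing cells, did not pass the test (adjusted p = 0.60).

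Among called genes with a mean of at least 100 counts, the largest rises included several genes at or near 0 on chow. Pnpla5, a lipase of the family of adiponutrin, had 0 to 0.442 CPM on chow (median 0) and 0 to 22.9 CPM with atorvastatin (median 9.84), with 15 of 16 treated mice above the chow range. Its log2 fold change of 6.04 (adjusted p = 3.6e-07) depends on the model's prior, and limma-voom with quality weights did not call it (adjusted p = 0.0115). Gdf3, a growth factor of the TGFβ family, had 0 to 1.02 CPM on chow (median 0.30) and 4.09 to 13.4 CPM with atorvastatin (median 8.06), without overlap (log2 fold change 4.73, SE 0.41, adjusted p = 1.8e-13). Acod1, which makes itaconate in activated macrophages, had 0 to 2.02 CPM on chow (median 0.152) and 3.62 to 17 CPM with atorvastatin (median 6.62), also without overlap (log2 fold change 4.13, SE 0.65, adjusted p = 1.9e-06). The largest falls included Tnnt3 and Tnni2, muscle troponins whose chow level came from AZ#1. Their log2 fold changes were -7.22 and -5.46 with that mouse, and 0.34 and 1.58 without it. Sult5a1, a sulfotransferase, had 35.9 to 85.1 CPM on chow (median 54.3) and 0 to 10.1 CPM with atorvastatin (median 4.06), and it was lower without overlap (log2 fold change -3.72, SE 0.50, adjusted p = 1.3e-07).

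Apart from the lists of fatty acid synthesis and the cytosolic ribosome, single genes lay further from chow in treated mice than on WTD alone, and 3 of those with the smallest p are given here. Fn1, which encodes fibronectin, had 1234 to 1659 CPM on chow (median 1478), 1258 to 2573 CPM with atorvastatin (median 2031) and 925 to 2238 CPM on WTD alone (median 1366). In 14 of 16 treated mice it exceeded the chow range (log2 fold change 0.43, SE 0.10, adjusted p = 5.0e-04), and it exceeded WTD alone by 0.52 (adjusted p = 4.5e-05). Hs6st1, a heparan sulfate sulfotransferase, had 88 to 139.7 CPM on chow (median 126) and 121 to 181 CPM with atorvastatin (median 162), with 15 treated mice above the chow range (log2 fold change 0.41, SE 0.09, adjusted p = 3.4e-04), and it exceeded WTD alone by 0.45 (adjusted p = 8.2e-05). Srp14, a protein of the signal recognition particle, was lower than on chow (log2 fold change -0.31, SE 0.08, adjusted p = 0.0033) and than on WTD alone (-0.47, adjusted p = 2.8e-05).

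The treated mice did not lie equally far from chow. For each mouse, the level of a list was taken as the mean over its genes of log2 CPM minus the chow mean. The level of cholesterol synthesis ranged from -2.66 to -0.95 in treated mice, lowest in Gen#28, against -0.35 to 0.46 on chow. That of lipogenesis ranged from -0.40 to 2.06, above the chow range in 14 mice and lowest in Gen#28, and that of female-biased genes from -4.53 to -0.53, again lowest in Gen#28. Collagens ranged from 0.84 to 2.16, highest in Gen#25, and lipid-associated macrophage markers from 1.91 to 3.06, highest in Gen#22. The level of hepatocyte markers lay below the chow range in all 16 mice, at -1.07 to -0.22.

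**Figure D5:**
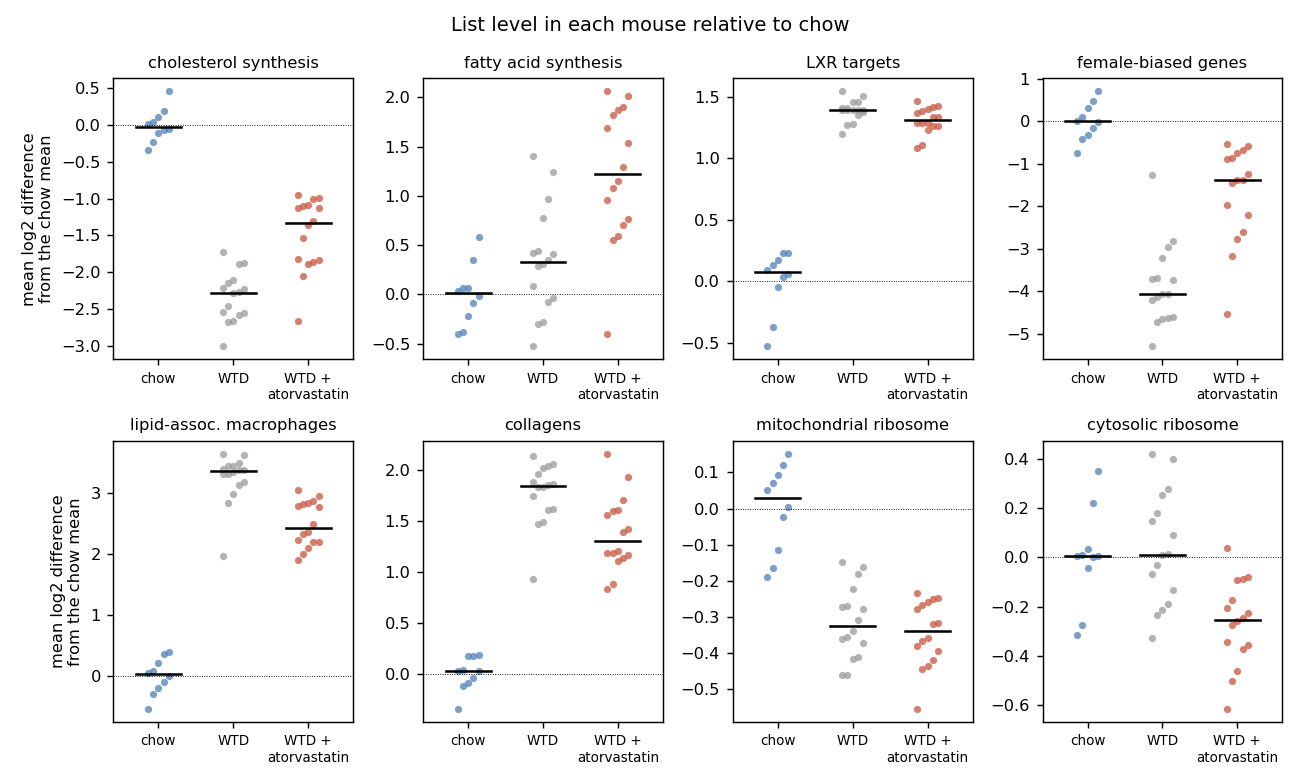
Level of 8 gene lists in each mouse (mean over the genes of log2 CPM minus the chow mean) on chow, WTD and WTD with atorvastatin. The treated mice ranged from 0.84 to 2.16 for collagens and from -2.66 to -0.95 for cholesterol synthesis, outside the chow range in both.

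These levels varied together across the 16 treated mice, a relation chosen for description after the values had been seen. Treated mice with a lower level of cholesterol synthesis had a lower level of lipogenesis (Pearson r = 0.966, adjusted p = 0.00012, Spearman rho = 0.915, adjusted p = 0.00012) and of female-biased genes (r = 0.884, adjusted p = 0.00012, rho = 0.659, adjusted p = 0.013) in permutation tests. They had higher levels of lipid-associated macrophage markers (r = -0.736, adjusted p = 0.0029, rho = -0.738, adjusted p = 0.0047) and of collagens (r = -0.676, adjusted p = 0.0074, rho = -0.70, adjusted p = 0.0079) in the same permutation tests. Hepatocyte markers followed with r = 0.674 (permutation test, adjusted p = 0.0074) and rho = 0.574 (adjusted p = 0.034), while the level of LXR targets gave r = 0.372 (permutation test, adjusted p = 0.21) and rho = 0.341 (adjusted p = 0.23). The p-values were from 100000 two-sided permutations and were adjusted over 12 relations, 6 in each WTD group, and the raw p for lipogenesis, 1e-05, is the smallest that these permutations can give. This adjustment does not cover the choice of the relations among 58 lists, so that the p-values only describe them. The permutations treat the mice as exchangeable, whereas the paper states that mice were group-housed, and no label gives the cage. The raw permutation p of r was 3e-05 for female-biased genes, 0.00095 for lipid-associated macrophages, 0.0043 for collagens, 0.0043 for hepatocyte markers and 0.16 for LXR targets, and that of rho was 1e-05 for lipogenesis, 0.0065, 0.0016, 0.0033, 0.023 and 0.19 in the same order. Without Gen#28 and Gen#36, which lay farthest from the median, r over the 14 others was 0.935 for lipogenesis, 0.799 for female-biased genes, 0.806 for hepatocyte markers, 0.613 for LXR targets, -0.746 for lipid-associated macrophages and -0.72 for collagens.

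In the 16 mice on WTD alone, the level of cholesterol synthesis gave r = 0.887 (permutation test, adjusted p = 0.00012) and rho = 0.868 (adjusted p = 0.0003) with lipogenesis, and r = -0.664 (adjusted p = 0.0073) and rho = -0.832 (adjusted p = 0.0008) with lipid-associated macrophages. It gave r = -0.274 (permutation test, adjusted p = 0.31) and rho = -0.194 (adjusted p = 0.47) with collagens. For female-biased genes, hepatocyte markers and LXR targets r was 0.535, 0.342 and 0.325 (permutation test, adjusted p = 0.049, 0.24 and 0.24). Without Gen#11 and Gen#4, which lay farthest from the median, r was 0.862 for lipogenesis, -0.713 for lipid-associated macrophages, -0.503 for collagens, 0.567 for female-biased genes, 0.605 for hepatocyte markers and 0.603 for LXR targets. The difference between the groups was not tested. The levels of 1 mouse come from the same library, and the log10 depth of the library gave r = -0.272 (permutation test, p = 0.31) and rho = -0.071 (p = 0.80) with cholesterol synthesis in treated mice and r = 0.47 (permutation test, p = 0.069) and rho = 0.47 (p = 0.066) on WTD alone. Without the same pairs of mice r was 0.197 and 0.496. Of the 6 treated mice with the lowest cholesterol synthesis, 4 carry the consecutive numbers Gen#22 to Gen#25, and the labels do not say what the numbers stand for.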

How the data were processed

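The livers of 42 female APOE*3-Leiden mice each gave 1 RNA sequencing library. According to the methods and processing notes of the submitters, strand-specific oligo-dT libraries were aligned to GRCm38 with STAR 2.5 and read pairs were assigned to genes with HTSeq 0.6.1p1. The deposited unit is the count per gene, without normalization, for 54446 genes. Read pairs in no gene (2.28% of all on average), ambiguous between genes (5.95%) or aligned to more than 1 place (4.68%) entered neither totals nor tests. Gene positions came from the GENCODE vM21 annotation, with 54409 identifiers matched, and the promoter from RefSeq on GRCm38.p6.

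Weak genes were removed by filterByExpr (counts of at least 10, totals of at least 15), and the others were scaled by TMM and tested with the robust quasi-likelihood test of edgeR 4.0.16 (R 4.3.3, limma 3.58.1) in 1 model of all 42 mice with 3 groups and without covariates, the labels naming no batch. Adjustment ran over all 15574 tested genes, and adjusted p values under 0.01 were called. The 1.5-fold test was glmTreat, and log2 CPM used a prior count of 2. The fit was tested on simulated data. Relations between mice used Python 3.11.15, numpy 2.4.6 and pandas 2.3.3, and plots matplotlib 3.10.9.

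The gene lists and the rule for named genes were chosen with earlier results of these data known. The rule takes preset index genes, per list the 2 called genes of smallest p, the 10 largest rises and falls with a mean of at least 100 counts, 8 genes near chow and 8 further from chow than WTD alone, and not all are printed. Cd163 and Fcna were added after their values were seen. Some named genes are not reported here. Alternatives were DESeq2 1.42.0, limma-voom with quality weights, RLE and upper-quartile scaling, at least 10 counts in every mouse compared, no filter, only 2 groups, an adjusted p under 0.05, glmTreat, no 20 most abundant genes, no libraries missing over 20% of weak genes, and leaving out each mouse.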

Additional observations from a re-analysis of the deposited data

Results flagged for a closer look

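In the 10 chow mice, the gap between the highest or lowest mouse and its neighbour was set against the range of the group for the depth of the libraries, for each gene named here and for 9 list levels. Of these 133 sets of values, 14 held a mouse that stood apart, in 13 of them as the highest. Chance gives about 1 in 20 only for independent sets of normally distributed values. These sets share libraries and CPM was not log-transformed, so the 14 cannot be set against that rate. Tnnt3 and Tnni2 were named as largest falls, which themselves rested on AZ#1. The critical values used here go up to 10 mice, and the 16 treated mice were not examined. In 7 of the 14 the mouse was AZ#1. Its library had 610 CPM of Tnnt3 and 185 CPM of Tnni2, where the next chow mice had 1.87 and 0.937 CPM, and 1358 CPM of Ighm, where the next had 36.1. It also had 106 CPM of H19 (next 1.85), 171 CPM of Lpl (next 57.1), 44.1 CPM of Acta2 (next 11.1) and 16.2 CPM of Cd22 (next 8.48). Without AZ#1, Acta2 differed from chow by 0.18 on the log2 scale (adjusted p = 0.60) and Cd22 by 1.25 (adjusted p = 1.3e-07). In AZ#5, Saa1 reached 217 CPM (next 81.6), Col1a1 80.9 CPM (next 42.7) and Mki67 36.5 CPM (next 23.4), and without AZ#5 the log2 fold change of Col1a1 was 3.01 (adjusted p = 7.6e-11). Csf3r reached 22.5 CPM in AZ#2 (next 8.81). In AZ#4, Asl was lowest at 463 CPM (next 705) and Ugt3a2 highest at 446 CPM (next 374). The library of AZ#10 was the deepest on chow, with 35410623 counts on genes (next 24315655).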

How the results depend on the processing

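The number of called genes, 3893, lay between 3651 and 4002 when each of the 26 mice was left out in turn, the number changed by more than 1.5-fold between 821 and 911, the number within 1.5-fold of chow between 5587 and 6023, and the share of called genes that were higher between 56.2% and 58.3%. The comparison of WTD alone with chow gave 4952 to 5285, and that of both WTD groups 913 to 1280. The number changed by more than 1.5-fold was 529 with at least 10 counts in every mouse compared. Of the called genes, 49.5% were higher when only the 2 groups were fitted, against 57.0% with all 3. With the test against 1.5-fold, 884 genes were called, of which 81.4% were higher, and the numbers were 1815 for WTD alone against chow and 8 between the WTD groups. Between the WTD groups, limma-voom gave 3145, leaving out libraries that missed weak genes 1664 and an adjusted p under 0.05 gave 2021. The cause was not tested. With 1 mouse left out, the log2 fold change of Ighm lay between -2.18 and 0.90, that of Tnnt3 between -7.50 and 0.34 and that of Tnni2 between -5.71 and 1.58, where the sign reversed without AZ#1. DESeq2 gave 0.85, 0.40 and 1.47, and limma-voom 0.077 for Ighm and 1.05 for Tnni2. Of 2098 values of named genes under the other alternatives, 2054 kept their direction and side of the threshold, and of 5564 values with 1 mouse left out, 5493 did. The median log2 fold change of all tested genes stayed below 0.1 under each scaling. No paired analysis was possible because no label links a mouse of one group to a mouse of another. Genes of a few CPM rest on few counts, and the share of weak genes without a count did not follow depth, being 57.3% in AZ#2 with 17342797 counts and 6.97% in AZ#3 with 17202366.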

Other observations

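Further hepatocyte pathways held genes below chow in treated mice. In alcohol and aldehyde metabolism 7 of 13 genes were lower and none was higher (median log2 fold change -0.36). Adh4, an alcohol dehydrogenase, had 121 to 173 CPM on chow (median 142) and 53.5 to 114 CPM with atorvastatin (median 89.2), without overlap (log2 fold change -0.82, SE 0.09, adjusted p = 2.9e-11). Of 17 glutathione transferase genes, 3 were higher and 6 lower, with Gsta3 at -0.67 (adjusted p = 3.8e-07). In tryptophan and tyrosine degradation 5 of 12 genes were lower (median -0.32), and 3 were without the chow mouse AZ#7. Among periportal markers, Hal, which breaks down histidine, had 374 to 682 CPM on chow (median 523), 124 to 460.2 CPM with atorvastatin (median 309) and 78.1 to 376 CPM on WTD alone (median 112). It was lower than on chow (log2 fold change -0.81, SE 0.22, adjusted p = 0.0031) and higher than on WTD alone (1.24, adjusted p = 4.7e-05). Glul, the glutamine synthetase of pericentral hepatocytes, had 1017 to 1485 CPM on chow (median 1234) and 264 to 1728 CPM with atorvastatin (median 1293), and its interval (-0.42 to 0.23) lay within 1.5-fold of chow. Its lowest treated value was that of Gen#28.

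Of 13 lipid droplet genes, 2 were higher and 2 lower (30.8% called, against 25% of all tested genes). Their median log2 fold change was 0.22, and single values ranged from -1.30 to 6.01. Plin2, the most general coat protein, had 459 to 908 CPM on chow (median 592) and 491 to 1078 CPM with atorvastatin (median 584), with an interval within 1.5-fold of chow (-0.11 to 0.37). G0s2, an inhibitor of triglyceride lipase, had 62.7 to 204 CPM on chow (median 91.1) and 33.3 to 79.2 CPM with atorvastatin (median 44), and it was lower in 14 of 16 treated mice than in any chow mouse (log2 fold change -1.30, SE 0.16, adjusted p = 1.5e-08). Annexins and S100 proteins were higher for 8 of 13 genes and lower for 2. Anxa2, a membrane-binding protein, had 23 to 46.8 CPM on chow (median 34.4) and 53 to 190.5 CPM with atorvastatin (median 91.8) and was 3.18-fold higher without overlap (log2 fold change 1.67, SE 0.20, adjusted p = 5.3e-09). Proteasome genes were lower for 14 of 38 or, with no filter, for 9 (median -0.17), and 33 had intervals within 1.5-fold of chow. Of 15 genes of the unfolded protein response, 5 were lower (33.3% called, against 25% of all tested genes). This was 3 without AZ#4 or without the libraries that missed weak genes. Of 11 iron genes, 1 was higher and 3 lower, and this was 1 and 1 without AZ#2 or without the libraries that missed weak genes. The iron exporter Slc40a1 had 80.4 to 145 CPM on chow (median 116) and 147 to 214 CPM with atorvastatin (median 179.8), without overlap (log2 fold change 0.64, SE 0.09, adjusted p = 4.9e-08). Among 13 circadian clock genes, 2 were higher and 1 lower, or 3 and 3 by limma-voom. The edgeR share, 23.1% called, lies near the 25% over all tested genes. The sources used here do not give the hour of collection per mouse.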
